A study of Homo sapiens with 4 samples.

Results

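The receptor activity-modifying proteins RAMP1, RAMP2 and RAMP3 were examined together with their receptors (CALCRL and CALCR) and peptides (ADM, ADM2, CALCA and CALCB). For each of the 9 genes, the tiles of 1000 bp that the deposited tables of differentially methylated regions (DMRs) list were taken where they overlapped the gene, extended by 10 kb on each side. Gene spans were those of GENCODE release 44 for GRCh37 (hg19). This gave 22 distinct listed tiles of the 72455 distinct tiles listed in all. A listed tile is one that passed the thresholds of the authors on the methylation difference between the compared libraries, in either direction.

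The libraries came from SKOV3, a long-established line of human ovarian cancer cells with mesenchymal-like traits. Reduced representation bisulfite sequencing (RRBS) was applied to 4 clones of these cells, with 1 library per clone and therefore no replicate. Clones with mesenchymal (M) phenotype were shC-S, with a control shRNA, and LY75-R-S, where LY75 was overexpressed again in cells whose own LY75 an shRNA suppressed. Clones with epithelial (E) phenotype were sh-LY75-S, with LY75 suppressed by shRNA, and LY75-KO-S, with LY75 suppressed by CRISPR. The 3 tables set shC-S against sh-LY75-S (here the knockdown comparison), LY75-R-S against LY75-KO-S (the knockout comparison), and both M clones against both E clones (the mix). The first pair of comparisons share no library, while the mix draws on those 4 libraries once more and is no independent evidence. As LY75-R-S was made in knockdown cells, the knockout comparison sets a clone that carries the shRNA against a CRISPR clone. LY75, the antigen receptor that was altered, is not among the 9 genes. A difference between clones cannot be told apart from a difference made by LY75, as each genotype is 1 clone. The tables list 51243 tiles for the knockdown comparison, 28282 for the knockout comparison and 20986 for the mix.

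RAMPs are small proteins with a single membrane span that pair with class B G protein-coupled receptors and set which peptide these bind. CALCRL with RAMP1 forms the receptor of calcitonin gene-related peptide (CGRP), and with RAMP2 or RAMP3 it forms the receptors of adrenomedullin. CALCR alone binds calcitonin, and with a RAMP it forms the amylin receptors. The receptors signal mainly through Gs and cyclic AMP, and adrenomedullin is known for its part in the growth of blood and lymph vessels and is raised by hypoxia. In mammals, methylation of a CpG-rich promoter usually goes with a silent gene, whereas methylation inside genes is common at active genes as well. Expression was not measured in these files.

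RRBS reads only part of each gene, since the DNA is cut at CCGG by MspI and only short fragments are sequenced. A tile was taken as in reach when it held at least 1 CpG within 50 bp, the read length, of an end of an MspI fragment of 40 to 220 bp in the reference. Of the 696 tiles in the 9 windows, 118 (17.0%) were in reach, against 13.0% of the tiles of the genome. Of all listed tiles 89.9% were in reach, so the rule only approximates what was read. Stretches of reference sequence inside listed tiles show what the method can read. The first 3 are the 300 bases upstream of the outermost annotated start of a receptor partner, a receptor and a peptide whose start lay in a listed tile, and capitals mark the MspI sites. Each is written 5′ to 3′ on the strand of the gene.
RAMP3, chr7:45197090-45197389, GRCh37, plus strand: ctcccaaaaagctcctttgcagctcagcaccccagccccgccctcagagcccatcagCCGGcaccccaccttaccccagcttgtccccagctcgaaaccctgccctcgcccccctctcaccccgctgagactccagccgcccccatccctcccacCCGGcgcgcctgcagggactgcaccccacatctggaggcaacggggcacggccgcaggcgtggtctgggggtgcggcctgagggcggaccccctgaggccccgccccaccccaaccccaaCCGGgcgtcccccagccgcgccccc
CALCR, chr7:93204043-93204342, GRCh37, minus strand: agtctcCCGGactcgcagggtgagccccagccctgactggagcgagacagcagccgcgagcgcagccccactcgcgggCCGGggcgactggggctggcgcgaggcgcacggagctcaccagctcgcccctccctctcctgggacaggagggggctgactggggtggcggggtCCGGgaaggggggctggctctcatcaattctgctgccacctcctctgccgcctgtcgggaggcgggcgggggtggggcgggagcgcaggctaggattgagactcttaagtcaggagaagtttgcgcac
ADM2, chr22:50919672-50919971, GRCh37, plus strand: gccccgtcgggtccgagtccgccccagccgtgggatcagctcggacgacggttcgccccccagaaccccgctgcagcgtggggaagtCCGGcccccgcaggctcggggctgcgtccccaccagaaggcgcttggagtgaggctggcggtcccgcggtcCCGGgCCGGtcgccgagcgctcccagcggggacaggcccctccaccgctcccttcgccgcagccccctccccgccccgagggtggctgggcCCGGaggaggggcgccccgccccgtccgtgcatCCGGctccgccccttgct
The stretch of RAMP3 held 20 CpGs and 3 MspI sites, that of CALCR 24 CpGs and 3 sites, and that of ADM2 37 CpGs and 5 sites. Among 35116 human promoter stretches of the same length in RefSeq (250 bases before to 50 after a start), 63.1% held CCGG at all, 33.6% held it at least 3 times and 15.7% at least 5 times. CCGG reads the same on both strands. The median of these promoters was 14 CpGs.

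The next pair of sequences are MspI fragments in listed tiles away from a start, with CpGs in capitals. The fragment of RAMP1 lies in an intron, in the only listed tile of a RAMP gene shared by both single comparisons. The fragment of CALCA, one of 4 in reach in its tile, lies upstream of the gene in the listed tile nearest to a start of CALCA, and it is the one with most CpGs.
RAMP1, chr2:238774757-238774866, GRCh37, plus strand: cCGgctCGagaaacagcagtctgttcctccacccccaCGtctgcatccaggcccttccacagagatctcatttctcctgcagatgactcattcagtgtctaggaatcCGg
CALCA, chr11:14995865-14995953, GRCh37, minus strand: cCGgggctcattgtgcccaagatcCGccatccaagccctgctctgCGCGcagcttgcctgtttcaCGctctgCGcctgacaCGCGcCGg
The RAMP1 fragment held 4 CpGs in 106 bp between the cuts, and the CALCA fragment held 9 CpGs in 85 bp. The counts include the CpG of each MspI site.

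Over the 9 windows, 17 tiles were listed in the knockdown comparison, 7 in the knockout comparison and 11 in the mix. At the starts of the genes the order was the same. A listed tile lay within 2 kb of an annotated transcription start of 7 of the 9 genes (77.8%) in the knockdown comparison, where the share of all 20163 protein-coding genes was 37.5%. These were RAMP2, RAMP3, CALCR, ADM, ADM2, CALCA and CALCB, and the exceptions were RAMP1 and CALCRL. In the knockout comparison it was 1 gene, CALCB (11.1%), where the share of protein-coding genes was 21.4%. In the mix there were 5 genes (55.6%), namely RAMP2, RAMP3, ADM, ADM2 and CALCB, where the share was 19.9%. With the start of the canonical transcript alone the counts were 6, 1 and 5 genes, and the shares of protein-coding genes were 26.5%, 11.5% and 13.1%. With 9 genes and no replicate, these counts describe the tables and carry no test. The 9 genes were chosen with earlier results of these data known. From these libraries the paper had selected a RAMP gene for methylation near its start. Its Results name RAMP1, but its Discussion names RAMP2, and the primers and antibody it lists are for RAMP2. The paper also reports bisulfite PCR, mRNA and protein for this gene. The counts of the 9 genes are therefore not those of an independent choice, and their excess over protein-coding genes is not read as a result.

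**Figure D1:**
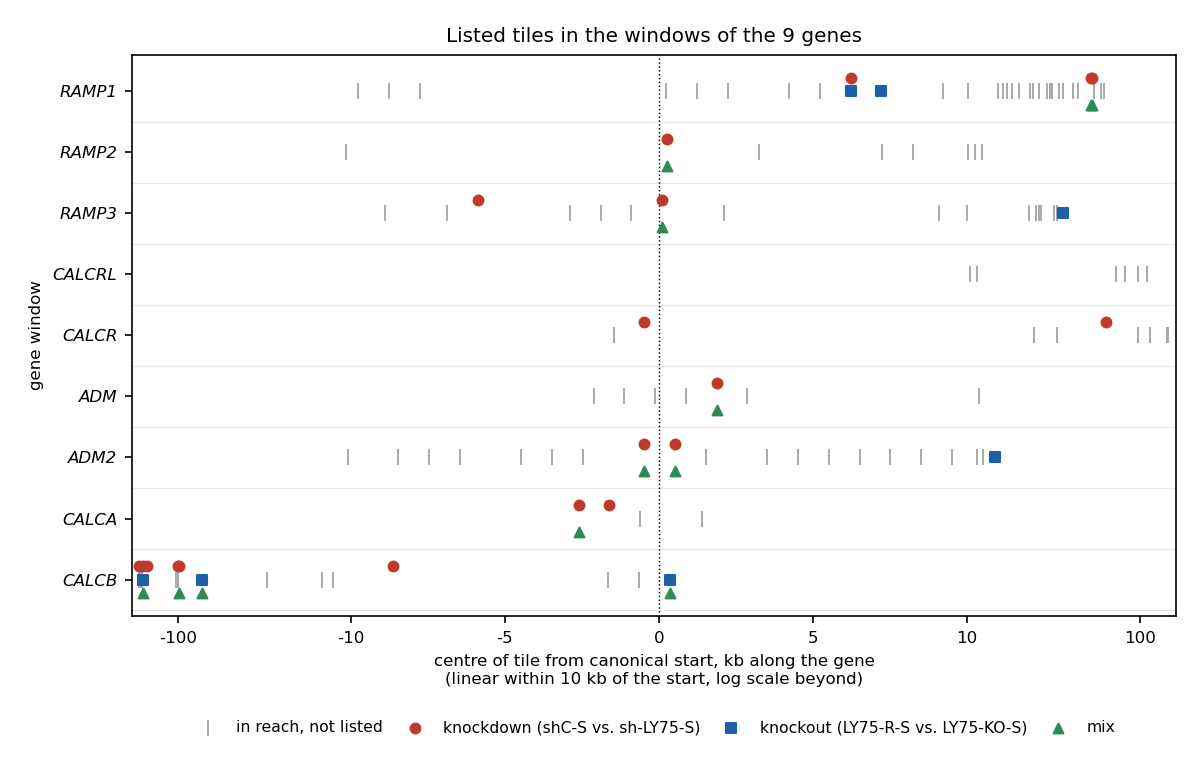
Listed tiles in the windows of the 9 genes, by gene and by distance of the centre of the tile from the start of the canonical transcript in kb, with upstream to the left. Grey lines are tiles in reach that are not listed, and circles, squares and triangles are tiles listed in the knockdown comparison, the knockout comparison and the mix. Tiles at the start carry circles for RAMP2, RAMP3, CALCR and ADM2 and a square for CALCB, while the start tiles of RAMP1, CALCRL, ADM and CALCA are not listed.

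Among tiles in reach, 16 of 118 were listed in the knockdown comparison (13.6%, 95% Wilson interval 8.52 to 20.9%), and the share of all tiles in reach was 12.6%. In the knockout comparison it was 6 tiles (5.08%, 2.35 to 10.7%), where the share of all was 6.67%. In the mix it was 10 tiles (8.47%, 4.67 to 14.9%), where the share of all was 5.2%. Each of these intervals holds the share of all tiles. For the mix this depended on the tiles counted. In the gene spans without extension, 9 of 74 tiles in reach were listed (12.2%, 6.53 to 21.5%), with the share of all at 5.2%. With at least 5 CpGs in reach, 8 of 56 tiles were listed (14.3%, 7.42 to 25.7%), with the share of all at 5.48%. With all tiles that hold a CpG, 11 of 688 were listed (1.6%, 0.895 to 2.84%), with the share of all at 0.74%. In these 3 settings the interval of the mix lay above the share of all tiles, while the intervals of the knockdown and knockout comparisons held it. In other settings the interval of the mix held the share of all tiles. With fragments of 20 to 400 bp it was 6.54% (3.59 to 11.6%), with the share of all at 4.14%. With the spans of canonical transcripts it was 8.49% (4.53 to 15.4%), with the share of all at 5.2%. The intervals treat tiles as independent and cover counting error only, though neighbouring tiles are not independent. The 9 genes were also chosen with earlier results of these data known. An interval above the share of all tiles is therefore not read as a result. The tables hold no read counts, so the depth behind a tile is unknown. A tile in reach that is not listed may have been below the thresholds or too thinly covered, and these cannot be told apart here.

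The RAMP genes differed in where their listed tiles lay. RAMP1, the partner that makes CALCRL a CGRP receptor, lies on chromosome 2 at 238767536-238820748 on the plus strand. Its window had 32 of 74 tiles in reach, and 4 of them were listed. The tile over its canonical start, chr2:238768001-238769000, was not listed in any table, though it had 95 CpGs, 54 of them in reach. The tile chr2:238774001-238775000, in an intron 5735 bp downstream of that start, was listed in both single comparisons but not in the mix, with 19 CpGs of which 3 in reach. The neighbouring intronic tile chr2:238775001-238776000, with 18 CpGs, was listed in the knockout comparison only. At the other end of the gene, tile chr2:238820001-238821000 over coding exon 3, the last of the canonical transcript, was listed in the knockdown comparison and the mix. Tile chr2:238821001-238822000, directly beyond the end of the gene, was listed in the same tables. Both tiles held 32 CpGs, with 10 and 11 in reach. Thus the listed tiles of RAMP1 lay inside the gene and at its end, and its CpG-rich start was in reach and absent from all tables.

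RAMP2, the partner that makes CALCRL an adrenomedullin receptor, lies on chromosome 17 at 40910465-40915059 on the plus strand. It had 1 listed tile, chr17:40913001-40914000, which covers the canonical start and exons 1 and 2 of 4. The tile was listed in the knockdown comparison and the mix, and held 87 CpGs, 50 in reach, the most CpGs among the listed tiles of the 9 genes. RAMP2-AS1, an antisense RNA gene, also overlaps the tile and has a start within 2 kb of it, so the tile cannot be given to RAMP2 alone. The other 7 tiles in reach of this window had 15 to 42 CpGs and were not listed.

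RAMP3, the other adrenomedullin partner of CALCRL, lies on chromosome 7 at 45197390-45225901 on the plus strand. Tile chr7:45197001-45198000 covers its start and exon 1 of 3 and was listed in the knockdown comparison and the mix, with 68 CpGs of which 55 in reach. The printed upstream stretch of RAMP3 lies in this tile. Tile chr7:45191001-45192000, 5390 bp upstream, was listed in the knockdown comparison only and held 13 CpGs. Tile chr7:45233001-45234000, downstream of the gene and within 2 kb of a start of ENSG00000289251, was listed in the knockout comparison only and held 10 CpGs. The remaining 14 tiles in reach held 9 to 28 CpGs. RAMP2 and RAMP3 thus had the CpG-rich tile of their start listed in the same tables, and RAMP1 had not. The paper had assayed RAMP2 after selecting from these libraries, and the mix reuses those of the knockdown comparison. The unlisted start tile of RAMP1 may also have been too thinly covered. The contrast is therefore not read as a result.

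RRBS reached few tiles of the receptors, and the count of listed tiles was low. Of the tiles in reach, 2 of 9 were listed for CALCR and 0 of 6 for CALCRL. Of all tiles in reach, 17.5% were listed in at least 1 table. CALCRL, the calcitonin receptor-like receptor, lies on chromosome 2 at 188206691-188313187 on the minus strand, and no tile of its window was listed. Only 6 of its 128 tiles were in reach, with 3 to 27 CpGs. The tile of its canonical start held 4 CpGs and none in reach, so its absence from the tables says nothing about methylation there. CALCR, the calcitonin receptor, lies on chromosome 7 at 93053798-93204042 on the minus strand, with 9 of 172 tiles in reach. Tile chr7:93204001-93205000, over the canonical start and mostly upstream of it, was listed in the knockdown comparison only, with 54 CpGs of which 45 in reach. The printed CALCR stretch lies in this tile. Tile chr7:93140001-93141000, in an intron 63036 bp from the start, was listed in the same table and held 6 CpGs.

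ADM encodes adrenomedullin and lies on chromosome 11 at 10326620-10328944 on the plus strand. The tile of its start, with 52 CpGs, and the next tile, with 81 CpGs, were in reach and in no table. The following tile, chr11:10328001-10329000, covers coding exon 4, the last, and was listed in the knockdown comparison and the mix, with 51 CpGs of which 15 in reach. It begins 1381 bp downstream of the canonical start and lies within 2 kb of annotated starts of AMPD3 and SBF2. Of the 7 tiles in reach around ADM, 5 had at least 50 CpGs, and this was the only one of them listed.

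ADM2, also named intermedin, acts on the same receptors and lies on chromosome 22 at 50919972-50924869 on the plus strand. Its window had the highest share in reach, 20 of 26 tiles. Tile chr22:50919001-50920000 reaches just past the start, with 84 CpGs. Tile chr22:50920001-50921000 covers exons 1, 2 and 3 in part, with 70 CpGs. Both neighbours were listed in the knockdown comparison and the mix. SBF1 overlaps both tiles and has a start within 2 kb of the second. The printed ADM2 stretch lies in the first of these. Tile chr22:50934001-50935000, 14029 bp downstream of the start, was listed in the knockout comparison only, with 29 CpGs, and runs 131 bp past the edge of the window. The tile of the window with most CpGs, 108, upstream at chr22:50913001-50914000, was in reach and not listed.

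CALCA encodes calcitonin and alpha-CGRP, and CALCB encodes beta-CGRP. CALCA lies on chromosome 11 at 14988168-14993900 on the minus strand. Its canonical start tile had 41 CpGs but none in reach. The listed tiles lay upstream of it: chr11:14995001-14996000, 1104 bp upstream with 68 CpGs, in the knockdown comparison only, and chr11:14996001-14997000, 2104 bp upstream with 37 CpGs, in the knockdown comparison and the mix. The printed CALCA fragment lies in the first of these. These tiles also lie in an intron of a long transcript of CALCB, whose annotated span on the plus strand, 14926543-15103888, holds the whole of CALCA, and they are counted once in the total of 22.

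CALCB had 8 listed tiles in its span of 177346 bp, the longest of the 9 genes. The canonical transcript covers only 15095139-15100183. Tile chr11:15095001-15096000, over the canonical start, was listed in the knockout comparison and the mix, with 71 CpGs of which 25 in reach. It was the only listed tile over a canonical start that the knockdown comparison did not list. Tile chr11:14926001-14927000, over the start of the long transcript, was listed in the knockdown comparison only, with 58 CpGs. Tile chr11:14935001-14936000, over a noncoding exon of the long transcript, was the only one of the 22 in all 3 tables. It held 2 CpGs and 1 MspI site, and was out of reach by the rule above and also with fragments of 20 to 400 bp. Over the genome, 442 (10.4%) of the 4250 tiles in all 3 tables were out of reach by the rule above, and 14 held at most 2 CpGs. Among all listed tiles, 122 (0.168%) held at most 2 CpGs. Of the intronic tiles, chr11:14944001-14945000 and chr11:15086001-15087000 were listed in the knockdown comparison only, with 10 and 13 CpGs. Tile chr11:15022001-15023000 was listed in the knockout comparison and the mix, with 5 CpGs.

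Sorted by table, 7 of the 22 tiles were listed in the knockdown comparison alone, 3 in the knockout comparison alone and 0 in the mix alone. A further 8 were in the knockdown comparison and the mix, 2 in the knockout comparison and the mix, 1 in both single comparisons without the mix and 1 in all 3. The share in all 3 was 4.55%, near the 5.87% over all listed tiles. The single comparisons, which share no library, had 2 tiles in common, the RAMP1 intron and the CALCB tile of 2 CpGs. This is 11.8% of the tiles of the knockdown comparison and 28.6% of those of the knockout comparison, beside 16.3% and 29.5% over all listed tiles. Direction was not used, so a tile in both may differ in opposite directions. LY75-R-S was also made in sh-LY75-S cells, so the single comparisons are linked by descent though they share no library. The overlap is therefore not read as agreement between them. None of the 5 listed tiles over a canonical start was in both. The matching share for canonical starts of other genes was not counted. With so few tiles and no such background, this count is not read as a result about starts.

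The place of the tiles was set beside that of all protein-coding genes, under the limit on the choice of the 9 genes given above. Within 2 kb of a start, the 9 genes had 28 tiles in reach, of which 8 (28.6%) were listed in the knockdown comparison, 1 (3.57%) in the knockout comparison and 6 (21.4%) in the mix. The shares over protein-coding genes were 13.3%, 5.62% and 5.61%. In the rest of the spans, 6 (11.5%), 3 (5.77%) and 3 (5.77%) of 52 tiles in reach were listed, beside 10.7%, 6.45% and 4.41% over protein-coding genes, so the knockout share lay below its background. In the rest of the extensions 2 (5.26%), 2 (5.26%) and 1 (2.63%) of 38 were listed, all below the 12.7%, 6.70% and 5.26% over protein-coding genes.

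**Figure D2:**
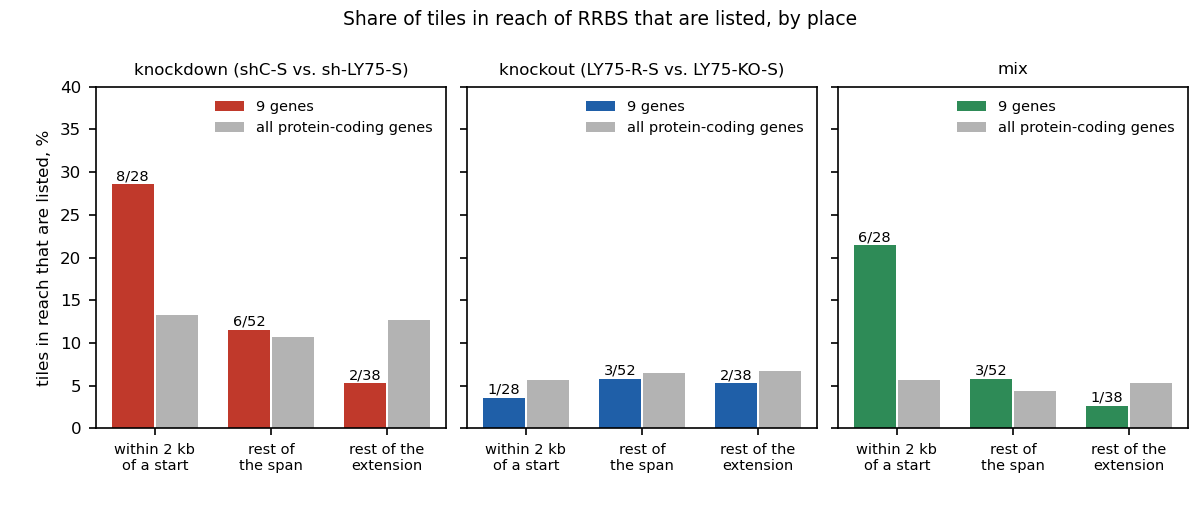
Share of tiles in reach of RRBS that each table lists, in percent, by place, for the 9 genes (coloured bars, with the listed tiles over the tiles in reach) and for all protein-coding genes (grey bars). In the knockdown comparison and in the mix, the bars within 2 kb of a start stand at 28.6% and 21.4%, and the grey bars beside them at 13.3% and 5.61%.

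The listed tiles of the 9 genes also held more CpGs than the unlisted tiles in reach. The 22 listed tiles had a median of 32 CpGs, with 2 to 87, while the 97 tiles in reach that were not listed had a median of 21, with 3 to 108. All 72455 listed tiles had a median of 19. Of 17 tiles in reach with at least 50 CpGs, 9 (52.9%) were listed in at least 1 table, beside 19.7% of the 30234 such tiles of the genome. By table these were 8 (47.1%), 1 (5.88%) and 6 (35.3%), beside 17.0%, 3.24% and 7.29%. Of the other 101 tiles in reach, 8 (7.92%), 5 (4.95%) and 4 (3.96%) were listed, each below the share of such tiles of the genome (12.2%, 6.97% and 5.02%). The limit of 50 CpGs was chosen after the counts of CpGs had been seen, and the 9 genes with earlier results of these data known. Neighbouring tiles such as those of ADM2 are not independent. The 8 tiles of this kind that no table listed were the start of RAMP1, 4 around ADM, 2 upstream of ADM2 and 1 beside the start of the long CALCB transcript.

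**Figure D3:**
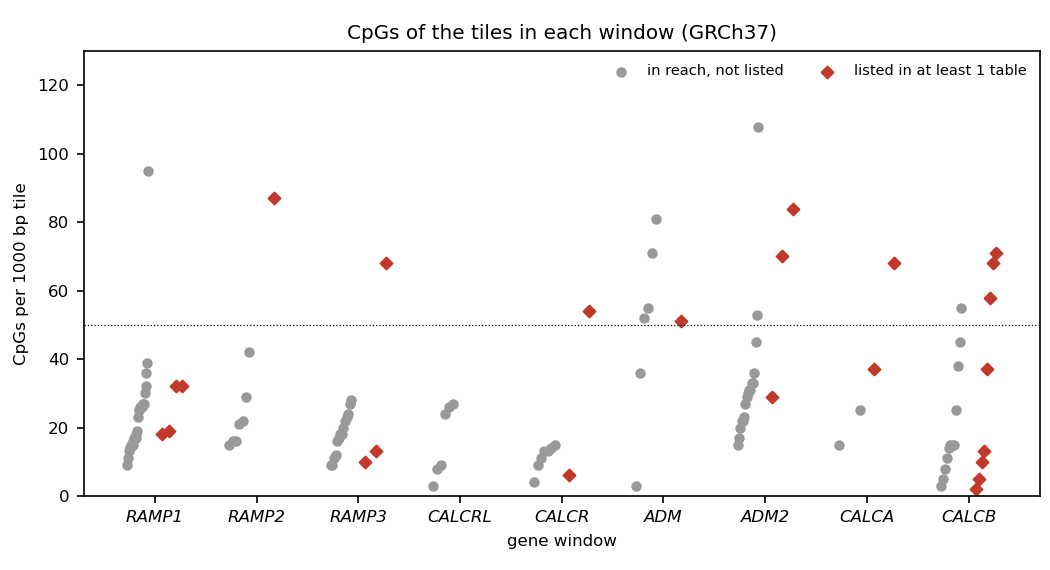
CpGs per tile of 1000 bp in GRCh37 for the tiles of each window, with tiles in reach that are not listed in grey and tiles listed in at least 1 table in red. The dotted line stands at 50 CpGs. The tile with most CpGs is red for RAMP2, RAMP3, CALCR, CALCA and CALCB, and grey for RAMP1 (95 CpGs), ADM (81) and ADM2 (108). The tiles that CALCA and CALCB share are drawn for both.

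A list of 47 other genes of the pathway was counted in the same way. It too was chosen with earlier results of these data known, so an excess over protein-coding genes is not read as a result. A listed tile lay within 2 kb of a start of 27 genes (57.4%) in the knockdown comparison, 14 (29.8%) in the knockout comparison and 20 (42.6%) in the mix, where the shares of protein-coding genes were 37.5%, 21.4% and 19.9%. No table listed such a tile for 15 genes. These genes had a median of 20 tiles near their starts, beside 6 for the 9 genes and 10 for protein-coding genes, so more of their sequence counts as near a start. With the canonical start alone the counts fell to 15 (31.9%), 7 (14.9%) and 11 genes (23.4%). The shares of protein-coding genes were 26.5%, 11.5% and 13.1%, so the single comparisons were near the background and the mix was above it. Of 9 genes for related peptides and for peptide processing and breakdown, 3, 2 and 2 had such a tile. Of 14 other receptors of class B or partners of RAMPs and their peptides, it was 7, 4 and 5, and of 24 genes of signalling, 17, 8 and 13, and the parts of the list were not compared by a test. Genes in all 3 tables were counted with all annotated starts only, so the larger number of tiles near the starts of these genes bears on this count too. The mix also reuses the libraries of the single comparisons. All 3 tables listed a tile near a start of 8 genes (17.0%, beside 8.48% of protein-coding genes). They were the adenylyl cyclases ADCY1, ADCY3 and ADCY5, which make cyclic AMP, ARRB2, a beta-arrestin that ends receptor signalling, and NHERF1, a scaffold that can bind RAMP3. The others were PCSK2, a protease that cuts prohormones, and CRHR1 and VIPR2, class B receptors for corticotropin-releasing hormone and for vasoactive intestinal peptide. For ADCY1, ARRB2, CRHR1 and NHERF1 the identical tile stood in all 3 tables. The share of protein-coding genes with an identical tile was not counted. Direction was not used, so these tiles are not read as agreement between the comparisons. Of the 9 genes, CALCB alone had a tile near a start in all 3 tables, over different starts and with no identical tile.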

How the data were processed

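RRBS was applied to 4 SKOV3 clones, giving 1 library each. Per the labels, DNA was cut with MspI, size-selected, bisulfite-converted and sequenced in single reads of 50 bp. The submitters' processing notes name FastQC, Trim Galore 0.4.1, Bismark 0.16.1, methylKit and hg19, while the protocol names Trimmomatic for trimming. Per the paper's methods, libraries were compared in windows of 1000 bp and kept past thresholds for the difference and the adjusted p-value. The names of the deposited tables carry 25 percent and a q-value of 0.01, while the methods state a looser adjusted p-value. The smallest coverage is not given in the sources used here. The 3 deposited tables give for each kept tile its position, a difference in percent methylation, a p-value and a q-value. These last 3 columns are the authors' own comparisons and were not used, so neither size nor direction of a difference is given. The table named for Sh and Ly75 was taken as the mix, by elimination. There were 0 columns of values per sample.

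Each tile was placed on GRCh37 and annotated with GENCODE release 44 lifted to that build. All listed tiles were 1000 bp long and lay inside their chromosomes on the same grid. CpGs, MspI sites and tiles in reach were computed from the reference, by scripts tested on simulated data. All 9 genes are named with every listed tile. Pathway genes are named where all 3 tables list a tile near a start, and other genes where a listed tile of a window overlaps them or lies within 2 kb of their start. Members and lists were chosen with earlier results of these data known. Promoters for the share with MspI sites came from RefSeq (GRCh38) without chromosome 8, and they matched 6 of the 9 genes. No test was made, since no clone has a replicate. Intervals are Wilson intervals at 95%. Alternatives varied the extension, the overlap rule, the distance and kind of start, and the definition of reach. Tools were pandas 2.3.3, numpy 2.4.6 and scipy 1.17.1 under Python 3.11.15, with figures from matplotlib 3.10.9.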

Additional observations from a re-analysis of the deposited data

How the results depend on the processing

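No paired analysis was possible because each clone has 1 library and the labels carry no replicate numbers. With an extension of 20 kb in place of 10 kb, the knockout comparison listed 11 tiles and the mix 17, and without CALCB, the longest gene, the knockout comparison listed 4. With the spans of canonical transcripts, chosen after seeing the data since the CALCB span holds CALCA, the single comparisons shared 1 tile, the RAMP1 intron. With canonical starts, also added after seeing the data, the pathway counts were 15, 7 and 11, and with starts of basic transcripts the mix count was 13. With all tiles holding a CpG as the base, 2.47%, 1.02% and 1.6% of the tiles in the windows were listed in the knockdown comparison, the knockout comparison and the mix, beside 1.81%, 0.998% and 0.74% of all tiles. With fragments of 20 to 400 bp the shares were 10.5%, 3.92% and 6.54% in the windows, beside 10.1%, 5.47% and 4.14% of all tiles. With at least 5 CpGs in reach they were 19.6%, 3.57% and 14.3%, beside 13.5%, 5.56% and 5.48%. Without extension they were 18.9%, 5.41% and 12.2%. The other 51 values stayed within 1.5 times the reported count or within the interval of the reported share. These included every count of the 9 genes with a listed tile near a start. The listed tile nearest outside a window lay 253 bp from that of RAMP1, and the next 1942 bp from that of RAMP2. The depth of each tile, which tiles were tested, and the spread between clones of one genotype are unknown here, so no count carries an error for clones.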
